A study of Mus musculus with 32 samples.

Results

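The 9 genes described here belong to the Nodal signalling pathway and were taken by symbol from a table of 55492 genes measured in 32 libraries. They are the ligands Nodal and Gdf3, the co-receptor gene Tdgf1, the inhibitor genes Lefty1, Lefty2 and Smad7, the cofactor gene Foxh1, and Eomes and Gsc, genes that the pathway is known to switch on. The rule takes genes by symbol alone, and each of the 9 had its own row. Polyadenylated RNA was sequenced from mouse embryonic stem cells (day 0) and from retinal organoids grown from them at days 2, 4 and 6, in 4 kinds of culture with 2 libraries per day. WT is the Rx:GFP line, and KO is Mettl3 knockout, named by the labels as such. The other kinds are KO cells that overexpress METTL3 joined to a domain that the labels call GRBD, here the fusion, either without dexamethasone (no Dex) or with it (Dex, 10 µM). Dexamethasone is a synthetic glucocorticoid, and the labels place the fusion in the cytosol without Dex and in the nucleus with it. The organoid medium of all 4 kinds held AGN at 0.1 µM. The protocol lists Dex for 2, 4 and 6 days, while the day 0 libraries of that group are also labelled as Dex treated. Dex was given only to cells with the fusion, so that an effect of Dex itself and of moving the fusion cannot be told apart. The promoter behind the fusion, and whether a line is 1 clone, are not given in the sources used here.

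Nodal is a secreted ligand of the TGF-beta family. It binds activin receptors together with the co-receptor that Tdgf1 (Cripto) encodes, the receptors phosphorylate SMAD2 and SMAD3, and these enter the nucleus with SMAD4 and act with partners such as FOXH1. Among the genes that they switch on are Nodal itself and its antagonists Lefty1 and Lefty2, so the pathway both amplifies and limits its own signal. Nodal signalling is active in embryonic stem cells and in the epiblast, it patterns mesoderm and endoderm at gastrulation, and its inhibitors favour the formation of anterior neural tissue. METTL3 is the catalytic part of the methyltransferase complex that places N6-methyladenosine on RNA.

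Lefty1 and Lefty2 are neighbouring paralogs, so their sequences bear on how well their values can be told apart. Both have 1104 coding bases, of which 1014 (91.8%) were identical in GENCODE transcripts of GRCm38, the build that the submitters' processing notes call mm10. They differed at 90 bases, and the 60 coding bases with most differences hold 18 of them. This stretch covers coding bases 34 to 93 in exon 1 of 4, at chr1:180935143-180935202 for Lefty1 and chr1:180893217-180893276 for Lefty2, both on the plus strand. Differing bases are in capitals:
Lefty1: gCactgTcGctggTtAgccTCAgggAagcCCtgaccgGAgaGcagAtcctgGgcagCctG
Lefty2: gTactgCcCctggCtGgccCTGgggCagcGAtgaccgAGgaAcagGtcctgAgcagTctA
No stretch of 150 bases, the length of a read, was common to both transcripts, while 17.9% of the 50-base stretches of Lefty1 and 11.6% of those of Lefty2 were. How the authors' counting split shared reads is not given in the sources used here, so the 2 genes are given singly and as a sum.

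Nodal and Tdgf1, ligand and co-receptor, had like patterns over the 16 group means (Pearson r = 0.916, a description), and the 250 bases before their start sites are shown for that reason, from RefSeq on GRCm38.p6. Nodal is read on the plus strand at chr10:61417722-61417971, and Tdgf1 on the minus strand at chr9:110946159-110946408:
Nodal: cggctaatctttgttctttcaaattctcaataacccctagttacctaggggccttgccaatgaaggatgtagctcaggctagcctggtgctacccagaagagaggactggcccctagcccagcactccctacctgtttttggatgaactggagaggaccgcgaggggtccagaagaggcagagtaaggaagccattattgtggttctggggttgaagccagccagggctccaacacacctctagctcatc
Tdgf1: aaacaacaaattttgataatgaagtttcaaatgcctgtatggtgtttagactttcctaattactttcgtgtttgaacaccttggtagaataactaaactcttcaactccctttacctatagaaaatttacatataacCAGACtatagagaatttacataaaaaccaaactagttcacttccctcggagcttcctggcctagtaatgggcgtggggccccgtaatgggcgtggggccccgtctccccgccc
Promoters of 4 of the 9 genes (Nodal, Tdgf1, Eomes and Gsc) were matched in the RefSeq table, in windows of 300 bases. On both strands, none of the 4 held the FOXH1 motif AATNCACA, the SMAD palindrome GTCTAGAC or the T-box site TCACACCT, which were in 3.6%, 0.213% and 1.28% of 32851 promoters. The shorter SMAD site CAGAC was searched after the others had been seen and was in 49.6% of promoters. It was in 1 of the 4, at base 138 of the Tdgf1 sequence (in capitals). GGACT, a common form of the site that METTL3 methylates, was counted in the longest transcript of each gene after the values were seen. It occurred 4 times in Nodal, which is 1.91 per 1000 bases, and 5 times in Gsc, which is 3.94, against a median of 1.05 over 13588 tested genes. Counts of the other 7 genes ran from 0.73 per 1000 bases in Foxh1 to 1.55 in Tdgf1.

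In GRCm38, Nodal (ENSMUSG00000037171) lies on chromosome 10 at 61417972 to 61425338, Gdf3 (ENSMUSG00000030117) on chromosome 6 at 122605403 to 122610087, and Tdgf1 (ENSMUSG00000032494) on chromosome 9 at 110939603 to 110946158. Lefty1 (ENSMUSG00000038793) and Lefty2 (ENSMUSG00000066652) lie on chromosome 1 at 180935022 to 180938400 and 180893108 to 180899103. Foxh1 (ENSMUSG00000033837) lies on chromosome 15 at 76668225 to 76669948, Eomes (ENSMUSG00000032446) on chromosome 9 at 118478212 to 118486132, and Gsc (ENSMUSG00000021095) on chromosome 12 at 104471209 to 104473330. Smad7 (ENSMUSG00000025880) lies on chromosome 18 at 75367529 to 75395935. All 9 are annotated as protein coding, and FPKM were per gene.

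Values are FPKM, the authors' fragments per kilobase of transcript, scaled to the mapped fragments of the library. The steps between low values put the depth between about 28300000 and 54300000 fragments per library. Duplicates correlated at Pearson r between 0.9922 and 0.9955 across genes. The labels do not say that duplicates came from separate cultures, so p-values measure the spread between these libraries, which may be technical. Mettl3 itself lay between 32.51 and 41.21 FPKM in WT and between 34.88 and 43.83 FPKM in the libraries labelled KO, so gene-level FPKM did not separate them, and the extent of the deletion is not given in the sources used here. In cultures with the fusion Mettl3 lay between 44.46 and 75.06 FPKM. Changes are differences of log2(FPKM + 1) with their standard error (SE), on which the change of a low gene appears smaller than it is. A gene was called at an adjusted p under 0.05 by limma over all 16276 tested genes. All 9 genes passed the filter of 1 FPKM in at least 2 libraries, Gsc through 10 libraries of the other 3 cultures and none of WT. These are bulk samples, in which fewer cells of a type and less RNA per cell cannot be told apart.

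**Figure D1:**
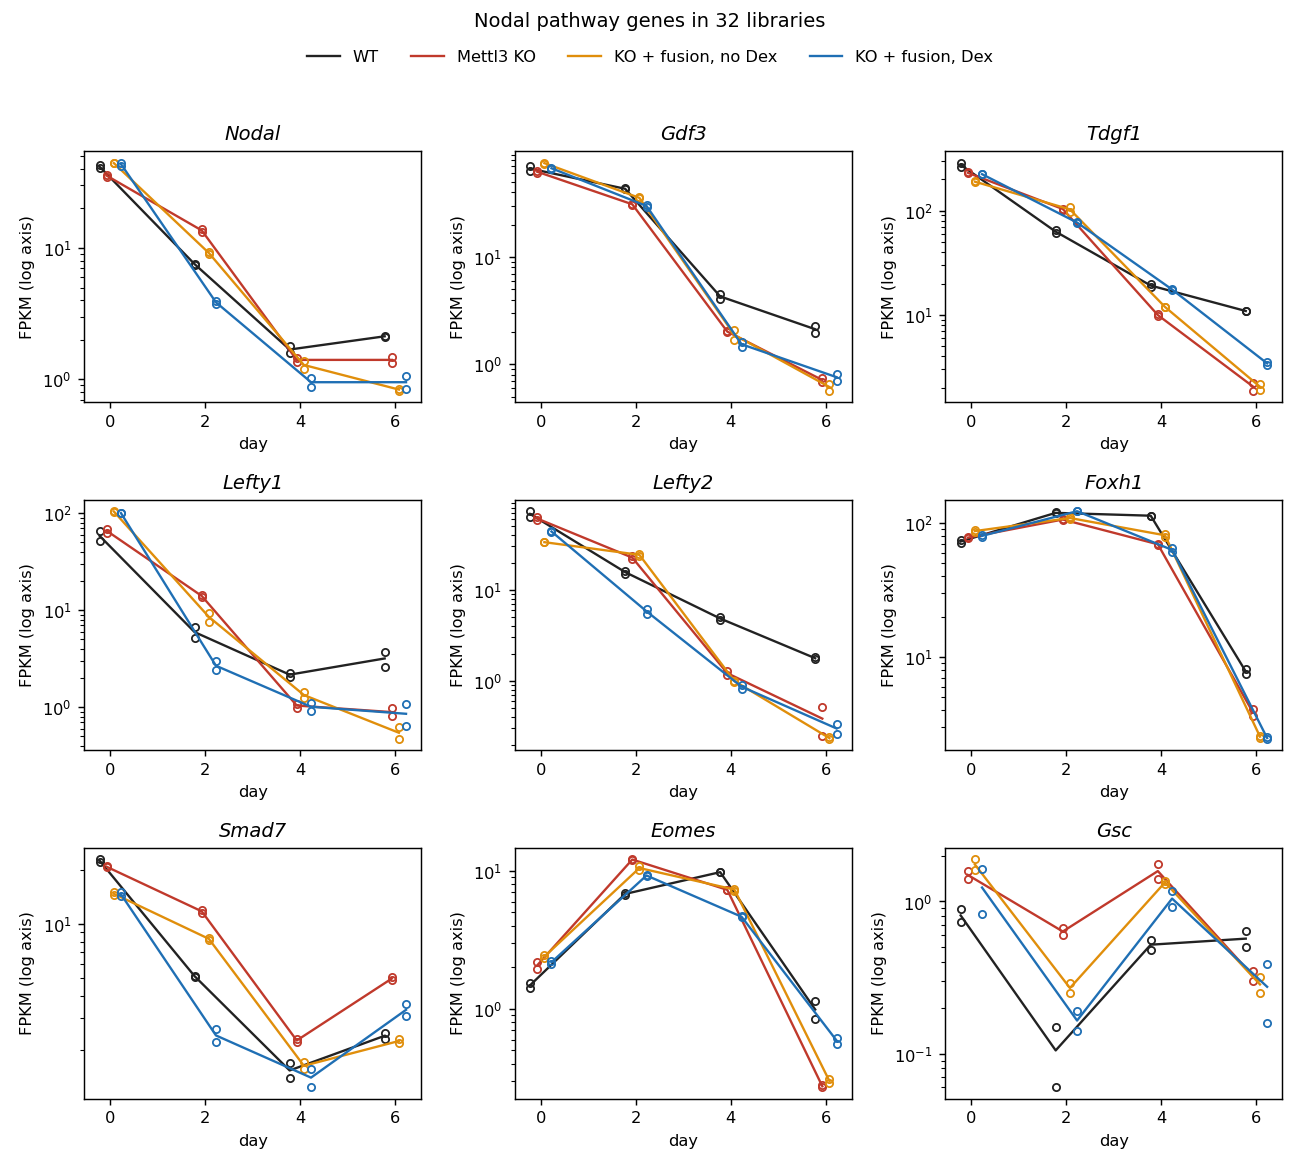
FPKM of the 9 genes by day (log axis), with open circles for single libraries and lines through the means of the 2 libraries of each group. Nodal, Gdf3, Tdgf1, Lefty1, Lefty2 and Smad7 were highest at day 0 in each culture, while Foxh1 and Eomes were highest at day 2 or 4.

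The ligand, co-receptor and inhibitor genes fell steeply as stem cells became organoids, whereas Foxh1 and Eomes rose before they fell. Between days 0 and 2 all 9 genes were called in each of the 4 cultures, 7 of them lower and 2 (Foxh1 and Eomes) higher. Background was 63.4% of tested genes called in WT (27.4% higher, 36.0% lower), 65.6% in KO (37.2% higher, 28.5% lower), 67.9% in no Dex (41.4% higher, 26.5% lower) and 60.6% in Dex (29.2% higher, 31.4% lower). In no Dex, rescaling by median-of-ratios factors moved the median change of all genes by -0.11 and the share of calls that were higher from 61.0% to 46.7%. At day 6 each gene had a mean below that of day 0 in each culture, by between 1.42-fold (Gsc in WT) and 191-fold (Lefty1 in no Dex). The plot of FPKM by day shows these courses for each library.

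Nodal stood at 40.63 and 42.72 FPKM in WT stem cells, 36.17 and 34.95 in KO, 44.19 and 44.50 in no Dex, and 44.70 and 42.50 in Dex. The KO libraries were the lowest and did not overlap WT (change -0.22, SE 0.06, adjusted p = 0.00396). At day 2 Nodal was 7.46 and 7.61 FPKM in WT, 13.93 and 13.30 in KO, 8.95 and 9.38 in no Dex, and 3.75 and 3.96 in Dex. The 4 cultures did not overlap, with KO highest and Dex lowest. Nodal thus kept 38.3% of its day 0 mean in KO, 20.7% in no Dex, 18.1% in WT and 8.84% in Dex. KO was 1.81-fold above WT (change 0.78, SE 0.06, adjusted p = 1.25e-09), and Dex was 2.38-fold below no Dex (change -1.07, SE 0.06, adjusted p = 9.73e-11). By day 4 all libraries lay between 0.87 and 1.79 FPKM. At day 6 WT, at 2.11 and 2.14 FPKM, stood above KO at 1.34 and 1.47, no Dex at 0.82 and 0.85 and Dex at 0.84 and 1.06, and the last 2 groups overlapped. The KO change was -0.16 at day 4 (adjusted p = 0.0264) and -0.38 at day 6 (adjusted p = 1.29e-05). The day 4 call was lost when WT replicate 1 (adjusted p = 0.242) or KO replicate 1 (adjusted p = 0.144) was left out.

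Gdf3, a second ligand of the family that also uses Tdgf1, moved otherwise than Nodal at day 2. It was 69.72 and 63.33 FPKM in WT stem cells, and day 0 libraries of all cultures lay between 60.99 and 75.66. At day 2 WT held 42.73 and 43.63 FPKM, above KO at 31.28 and 30.67, no Dex at 35.96 and 35.11, and Dex at 30.29 and 29.48. KO was 1.39-fold below WT (change -0.47, SE 0.06, adjusted p = 2.72e-06), in the direction opposite to Nodal. At day 4 WT held 4.50 and 4.09 FPKM while libraries of the other 3 cultures lay between 1.46 and 2.08, and at day 6 WT held 1.98 and 2.27 against 0.57 to 0.82. KO stood 2.13-fold below WT at day 4 and 2.97-fold below at day 6.

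Tdgf1, the co-receptor gene, had the highest FPKM of the 9 at day 0, with 289.02 and 261.88 FPKM in WT, 228.23 and 233.83 in KO, 190.82 and 188.67 in no Dex, and 223.36 and 224.62 in Dex. At day 2 the order had turned, and WT was lowest with 65.17 and 60.67 FPKM against 104.93 and 102.54 in KO, 107.87 and 97.89 in no Dex, and 76.28 and 77.68 in Dex. KO and no Dex overlapped, and their difference was -0.01 (SE 0.06, adjusted p = 0.9). KO was 1.65-fold above WT (change 0.71, SE 0.06, adjusted p = 3.32e-09). At day 4 WT was highest with 19.60 and 18.67 FPKM, above Dex at 17.59 and 17.47, no Dex at 11.98 and 11.89, and KO at 10.11 and 9.83 (KO change -0.88, SE 0.06, adjusted p = 1.34e-10). WT was again highest at day 6, when it kept 10.94 and 10.87 FPKM, KO 2.24 and 1.88, no Dex 2.19 and 1.90, and Dex 3.29 and 3.57. KO was 5.29-fold below WT (change -1.96, SE 0.06, adjusted p = 4.03e-16). This was the largest change between KO and WT on the log2 scale for any of the 9 genes at any of the 4 days. The largest ratio of means was that of Gsc at day 2, 6.05-fold higher in KO at values below 1 FPKM. For Tdgf1 at day 6, Dex stood 1.68-fold above no Dex (change 0.54, SE 0.06, adjusted p = 3.57e-07) and 3.18-fold below WT. Tdgf1 shared 12.5% of its 50-base stretches, and 0.28% of its 150-base stretches, with the pseudogene Tdgf1-ps1, whose reads may be exchanged with it.

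Lefty1 and Lefty2, the secreted antagonists of Nodal, kept more of their RNA in KO than in WT at day 2 and less of it afterwards. Lefty1 was 51.43 and 65.56 FPKM in WT stem cells, 68.57 and 63.24 in KO, 103.09 and 105.36 in no Dex, and 100.27 and 100.47 in Dex. At day 2 it was 5.13 and 6.76 FPKM in WT, 13.55 and 14.51 in KO, 7.61 and 9.45 in no Dex, and 2.96 and 2.39 in Dex, and no 2 of the 4 groups overlapped. KO was 2.36-fold above WT (change 1.12, SE 0.14, adjusted p = 1.48e-06), and Dex was 3.19-fold below no Dex (change -1.37, SE 0.14, adjusted p = 3.01e-07). At day 6 WT held 3.74 and 2.62 FPKM, and libraries of the other cultures lay between 0.47 and 1.07. Lefty2 at day 2 was 15.08 and 16.29 FPKM in WT, 21.97 and 23.31 in KO, 25.05 and 23.52 in no Dex, and 5.50 and 6.13 in Dex. Dex libraries lay well below all others, 4.18-fold below no Dex (change -1.89, SE 0.08, adjusted p = 4.82e-12), while KO stood 1.44-fold above WT (change 0.50, SE 0.08, adjusted p = 2.37e-05). At day 4 Lefty2 kept 5.05 and 4.65 FPKM in WT but lay between 0.82 and 1.27 in the other 6 libraries. KO was then 3.99-fold below WT (change -1.40, SE 0.08, adjusted p = 1.62e-11). At day 6 the difference was -1.01 (SE 0.08, adjusted p = 1.36e-09), with 0.52 and 0.25 FPKM in KO against 1.73 and 1.82 in WT.

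The balance of the paralogs differed between the lines in stem cells. Lefty1 was 0.815 and 0.891 times Lefty2 in WT at day 0, 1.09 and 1.08 times in KO, 3.11 and 3.13 times in no Dex, and 2.35 and 2.24 times in Dex. The groups with the fusion stood apart from the others, and no groups overlapped. The sum of both genes had a mean of 126.83 FPKM in WT, 126.73 in KO, 137.68 in no Dex and 144.19 in Dex. Between no Dex and KO, Lefty1 was higher (change 0.65, SE 0.14, adjusted p = 0.000782) and Lefty2 lower (change -0.84, SE 0.08, adjusted p = 5.23e-08). Lefty2 was higher in Dex than in no Dex at day 0 (change 0.38, SE 0.08, adjusted p = 0.000756), a call that a pseudocount of 0.1 ended (adjusted p = 0.0631), and Lefty1 was not called (change -0.05, SE 0.14, adjusted p = 0.816). At day 2 the ratio was under 1 in all 8 libraries, from 0.304 to 0.622.

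**Figure D2:**
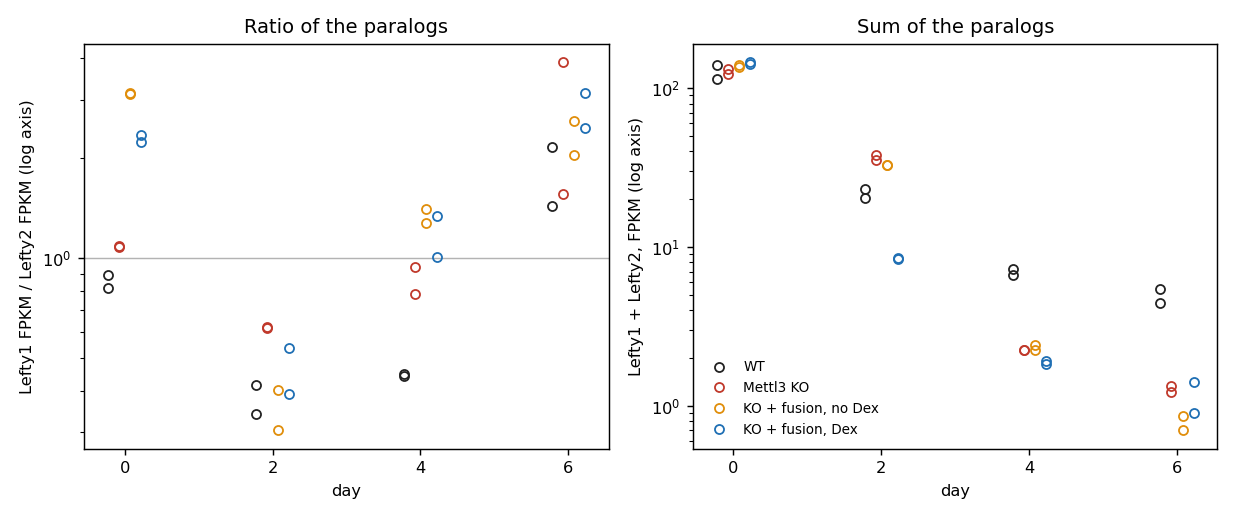
Ratio of Lefty1 to Lefty2 FPKM (left) and their sum in FPKM (right) by day, both on log axes, with a circle per library and a grey line at a ratio of 1. At day 0 the 4 libraries with the fusion lie between ratios of 2.24 and 3.13, above WT and KO, while sums lie between 114.52 and 145.36 FPKM.

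Smad7 encodes an inhibitor inside the cell that blocks activated TGF-beta family receptors. At day 2 Smad7 was 5.18 and 5.11 FPKM in WT, 12.02 and 11.57 in KO, 8.43 and 8.16 in no Dex, and 2.61 and 2.21 in Dex, in the same order of cultures as Nodal and Lefty1. KO was 2.29-fold above WT (change 1.06, SE 0.07, adjusted p = 2.04e-10) and Dex 3.44-fold below no Dex (change -1.45, SE 0.07, adjusted p = 2.3e-11). Unlike Nodal, Tdgf1 and the Lefty genes, Smad7 was also higher in KO than in WT at days 4 and 6. It rose again from day 4 to day 6 in all 4 cultures, to 2.50 and 2.30 FPKM in WT, 5.09 and 4.89 in KO, 2.20 and 2.29 in no Dex, and 3.59 and 3.10 in Dex. KO was highest at day 6 (change against WT 0.82, SE 0.07, adjusted p = 4.53e-09), and the 4 cultures did not overlap.

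Foxh1 encodes the forkhead factor that takes activated SMAD complexes to DNA. Its libraries lay between 70.67 and 88.64 FPKM at day 0 and between 104.28 and 122.63 at day 2. The cultures parted at day 4, when WT kept 113.27 and 113.03 FPKM while KO had 68.63 and 69.88, no Dex 83.02 and 78.68, and Dex 64.78 and 60.98. KO was 1.63-fold below WT (change -0.70, SE 0.04, adjusted p = 7.98e-11), and Dex was lower still than no Dex (change -0.36, SE 0.04, adjusted p = 3.12e-06). At day 6 Foxh1 had fallen in all cultures, to 8.18 and 7.40 FPKM in WT, 4.08 and 3.64 in KO, and between 2.44 and 2.58 in the 4 libraries with the fusion.

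Eomes, a T-box factor that drives mesoderm and endoderm genes, peaked at day 2 in KO, no Dex and Dex and at day 4 in WT. At day 2 WT held 6.94 and 6.68 FPKM, below KO at 12.07 and 12.11, no Dex at 10.85 and 10.13, and Dex at 9.17 and 9.36. At day 4 WT was highest, with 9.80 and 9.79 FPKM, above KO at 7.28 and 7.30, no Dex at 7.45 and 7.20, and Dex at 4.60 and 4.71. The KO change was 0.75 at day 2 (SE 0.06, adjusted p = 1.58e-09) and -0.38 at day 4 (SE 0.06, adjusted p = 1.06e-05), and at day 4 no Dex and KO overlapped. Gsc, a homeobox gene of the organiser, stayed at or below 1.89 FPKM in every library, about 2 to 72 fragments. It was higher in KO than in WT at days 0, 2 and 4, with 0.15 and 0.06 FPKM in WT against 0.67 and 0.60 in KO at day 2 (change 0.57, SE 0.13, adjusted p = 0.000678). No WT library reached 1 FPKM of Gsc, so it passed the filter only through libraries of the other cultures, and its count among higher genes of KO is not support by itself.

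The knockout was compared with WT at each day, libraries that the comparison of no Dex with KO and that of Dex with WT also use. At day 0, 4 of the 9 genes were called, Nodal and Tdgf1 lower and Eomes and Gsc higher, with changes between -0.25 and 0.46, against 48.2% of all tested genes (18.4% higher, 29.8% lower). Fitting these 2 groups alone kept the call of Gsc and no other. Gsc passed the filter through no WT library, so its higher calls at days 0, 2 and 4 are not support by themselves. At day 2 all 9 were called against 58.9% of tested genes. Nodal, Tdgf1, Lefty1, Lefty2, Smad7, Eomes and Gsc (7 genes) were higher, against 37.5% of tested genes, and Gdf3 and Foxh1 (2 genes) were lower, against 21.3%. The median change of the 9 was 0.71, and that of all genes 0.09. Rescaling moved the share of all calls that were higher from 63.8% to 50.5% and left the 9 calls in place with their signs. At day 4 all 9 were again called (background 60.5%), but 7 were lower (24.0% of tested genes) and Smad7 and Gsc were higher (36.5%). The median was -0.63 against 0.06 over all genes, and rescaling moved the share of calls higher from 60.3% to 49.6%. At day 6, 8 were called (65.1%), 7 lower (34.2%) and Smad7 higher (30.9%), with a median of -0.85 against -0.03. Gsc was not called (change -0.24, SE 0.13, adjusted p = 0.0976).

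The signs at day 2 and day 4 were opposite for Nodal, Tdgf1, Lefty1, Lefty2 and Eomes, higher in KO at day 2 and lower at day 4. Nodal and Tdgf1 had also been called lower in KO at day 0 (changes -0.22 and -0.25). For Nodal the day 4 call was lost when single libraries were left out, as given above. Its KO difference at day 4 was not called as different from that at day 0 (0.06, adjusted p = 0.529). Tests of the change in the KO difference from day 0 to day 2 were called for 8 of the 9 genes, with 48.9% of tested genes called, and those from day 0 to day 4 for 7, with 57.4%. For these 2 tests rescaling moved the share of calls higher from 73.0% to 55.3% and from 66.4% to 54.9%.

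**Figure D3:**
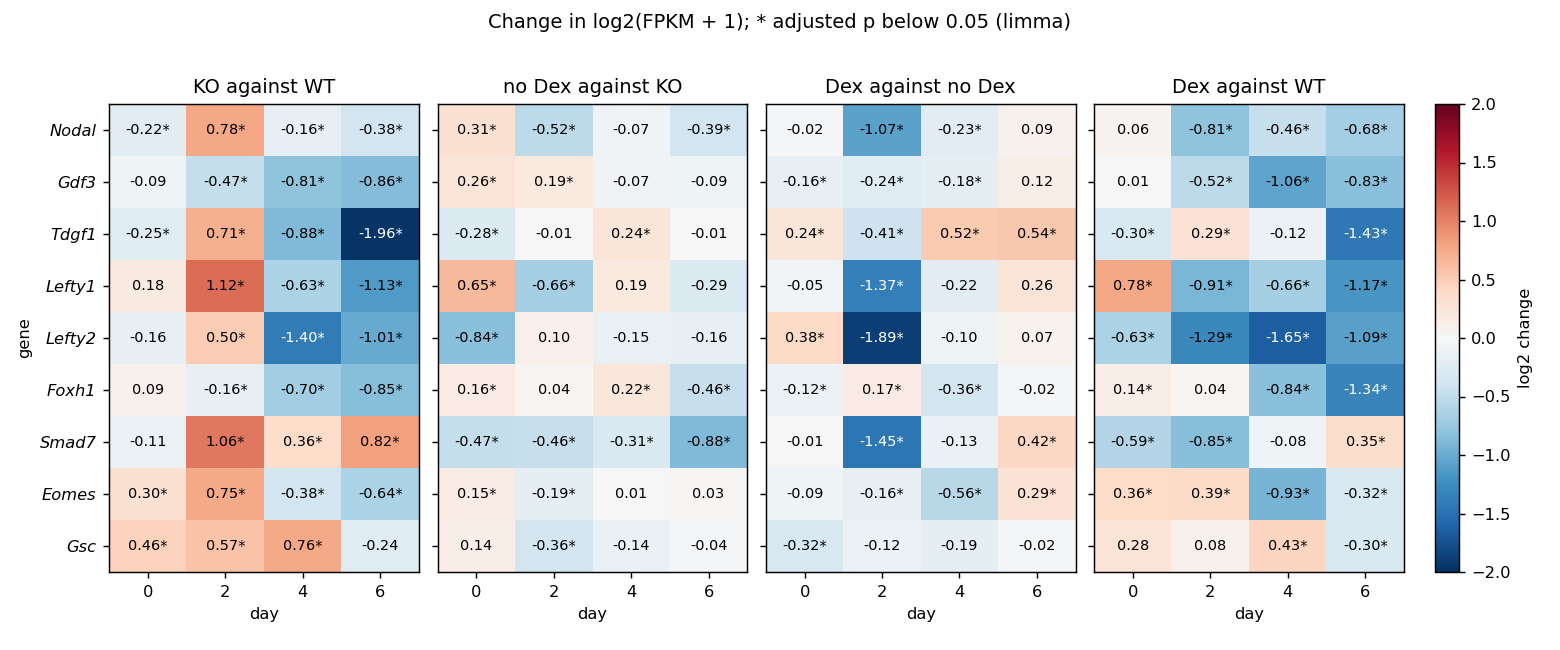
Change in log2(FPKM + 1) of each gene (rows) at days 0, 2, 4 and 6 (columns) in 4 comparisons, with the value in each cell, red for higher and blue for lower in the first-named culture, and a star where the adjusted p was below 0.05. In KO against WT, day 2 is mostly red and days 4 and 6 mostly blue, and in Dex against no Dex the day 2 values of Nodal, Lefty1, Lefty2 and Smad7 are the lowest of each row.

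In cells with the fusion, Nodal, Lefty1, Lefty2 and Smad7 were lower with Dex at day 2 by larger changes than on any other day. At day 2, 8 of the 9 genes were called (background 44.3%), 7 lower (31.5% of tested genes) and Foxh1 higher (12.7%), with a median of -0.41 against -0.08. The 4 largest were Lefty2, Smad7, Lefty1 and Nodal, between -1.89 and -1.07. Rescaling moved the share of calls higher from 28.7% to 50.1% and ended the calls of Gdf3 (change -0.13, adjusted p = 0.102) and Eomes (change -0.06, adjusted p = 0.46). The Eomes call (change -0.16, adjusted p = 0.0283) was also lost without no Dex replicate 1 (adjusted p = 0.217), Dex replicate 1 (0.122) or Dex replicate 2 (0.0684). At day 0, 5 were called (43.4%, with 27.3% higher and 16.1% lower), Tdgf1 and Lefty2 higher and Gdf3, Foxh1 and Gsc lower, with changes between -0.32 and 0.38. The Gsc libraries overlapped, and without Dex replicate 2 its change was -0.06 (adjusted p = 0.759). Leaving out each of the 4 libraries in turn gave 2 or 3 calls at this day, and rescaling moved the share of calls higher from 62.9% to 48.1%. At day 4, 5 were called (40.2%, with 18.3% higher and 21.9% lower), Tdgf1 higher (change 0.52, adjusted p = 7.78e-07) and Nodal, Gdf3, Foxh1 and Eomes lower. Without Dex replicate 2 of day 4, 3 calls were made. The Nodal call (change -0.23) was lost without it (adjusted p = 0.0729) or without no Dex replicate 2 (0.0752), and the Gdf3 call (change -0.18) without it (0.203) or without no Dex replicate 1 (0.414). At day 6, 3 were called (42.7%, with 23.8% higher and 19.0% lower), and all were higher, namely Tdgf1, Smad7 (change 0.42, adjusted p = 8.06e-05) and Eomes (change 0.29, adjusted p = 0.000408).

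The change in the Dex difference from day 0 to day 2 was called for 6 of the 9 genes, with 45% of tested genes called. For this test rescaling moved the median of all genes by 0.12 and the share of calls higher from 28.0% to 51.8%. Lefty2 (-2.27), Smad7 (-1.44), Lefty1 (-1.32), Nodal (-1.04) and Tdgf1 (-0.65) were all further from 0 than this shift. Lefty2 and Tdgf1 had been higher with Dex at day 0, Tdgf1 by a change of 0.24 (SE 0.06, adjusted p = 0.00242), and Nodal, Lefty1 and Smad7 were not called then.

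The fusion without Dex was compared with KO. At day 0, 8 of the 9 genes were called (background 49.1%, with 19.3% higher and 29.8% lower), Nodal, Gdf3, Lefty1, Foxh1 and Eomes higher and Tdgf1, Lefty2 and Smad7 lower, and rescaling moved the share of calls higher from 39.3% to 57.3%. The Eomes call (change 0.15, adjusted p = 0.0427) was lost with a pseudocount of 0.1 (0.0835), without a filter (0.0695), in a fit of these groups alone (0.22), and without KO replicate 1 (0.325), no Dex replicate 1 (0.204) or no Dex replicate 2 (0.0592). The Foxh1 call was lost without no Dex replicate 1 (0.0638), and leaving out each library gave 6 to 8 calls. At day 2, 6 were called (37.0%, with 14.8% higher and 22.2% lower), Gdf3 higher and Nodal, Lefty1, Smad7, Eomes and Gsc lower. The largest were Lefty1 (change -0.66, SE 0.14, adjusted p = 0.00118) and Nodal (change -0.52, SE 0.06, adjusted p = 1.41e-06). The calls of Gdf3 (change 0.19) and Gsc (change -0.36) were lost whichever library of these groups was left out. The Eomes call (change -0.19) was lost without KO replicate 1, KO replicate 2 or no Dex replicate 2. A pseudocount of 0.1 also ended the calls of Gdf3 (adjusted p = 0.0994) and Eomes (0.104). A count of 3 calls was found without KO replicate 1, KO replicate 2 or no Dex replicate 2 of that day. At day 4, 3 were called (26.7%, with 9.66% higher and 17.0% lower), Tdgf1 and Foxh1 higher and Smad7 lower, and rescaling moved the share of calls higher from 36.3% to 51.9%. At day 6 Nodal, Foxh1 and Smad7 were called lower (49.0%, with 21.1% higher and 27.9% lower), with Smad7 at -0.88 (SE 0.07, adjusted p = 3.85e-09).

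Cultures with Dex still differed from WT. At day 0, 6 of the 9 genes were called (background 49.8%, with 19.0% higher and 30.8% lower), Lefty1, Foxh1 and Eomes higher and Tdgf1, Lefty2 and Smad7 lower, and rescaling moved the share of calls higher from 38.2% to 49.3%. At day 2, 7 were called (29.4%, with 12.2% higher and 17.2% lower), with Tdgf1 (change 0.29) and Eomes (change 0.39) higher and Nodal, Gdf3, Lefty1, Lefty2 and Smad7 lower, between -1.29 and -0.52. At day 4, 7 were called (44.7%, with 25.7% higher and 19.1% lower), 6 lower and Gsc higher. As no WT library reached 1 FPKM of Gsc, its higher call (change 0.43, SE 0.13, adjusted p = 0.00925) is not support by itself. That call was lost without WT replicate 2 (change 0.39) or Dex replicate 1 (change 0.34) of day 4. At day 6 all 9 were called (61.4%, with 29.2% higher and 32.2% lower), 8 lower and Smad7 higher (change 0.35, SE 0.07, adjusted p = 0.000248), with rescaling ending the Gsc call (adjusted p = 0.0669). The largest changes were those of Tdgf1 (change -1.43, SE 0.06, adjusted p = 9.73e-14) and Foxh1 (change -1.34, SE 0.04, adjusted p = 6.06e-15).

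Within the lines, 8 of the 9 genes were called from day 2 to day 4 in WT (background 59.9%), and all 9 in KO (64.2%), no Dex (60.8%) and Dex (66.7%). In Dex, rescaling moved the median of all genes by -0.11 and the share of calls higher from 61.3% to 47.5%. Eomes rose in WT (change 0.47) and fell in KO, no Dex and Dex (changes of -0.66, -0.46 and -0.86). Gsc rose in all 4 cultures, by between 0.46 and 0.88. From day 4 to day 6, 8 were called in WT (66.7%, share of calls higher 62.5% and 50.8% after rescaling), 7 in KO (65.3%), 9 in no Dex (67.9%) and 7 in Dex (65.1%). Nodal and Lefty1 rose in WT over this step (changes 0.22 and 0.39), calls that rescaling ended (adjusted p = 0.0635 and 0.0861), and Smad7 rose in all 4 cultures.

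Other genes of Nodal and activin signalling were read in the same fit, from a list of 38, of which 31 passed the filter. Inhba, Acvr1c, Cfc1, Cer1, Mixl1, T and Lhx1 did not. In KO against WT 17 of the 31 were called at day 0 (3 higher, 14 lower), 22 at day 2 (15 higher, 7 lower), 26 at day 4 (17 higher, 9 lower) and 25 at day 6 (12 higher, 13 lower), against 48.2%, 58.9%, 60.5% and 65.1% of all tested genes. In Dex against no Dex 14 were called at day 0 (12 higher, 2 lower), 22 at day 2 (4 higher, 18 lower), 15 at day 4 (5 higher, 10 lower) and 18 at day 6 (9 higher, 9 lower), against 43.4%, 44.3%, 40.2% and 42.7%. The median change of the 31 at day 2 was 0.17 between KO and WT and -0.22 between Dex and no Dex, beside 0.09 and -0.08 over all genes. Rescaling changed the day 2 counts to 13 higher and 9 lower for KO, and to 6 higher and 13 lower for Dex, and the day 0 counts for Dex to 9 higher and 5 lower.

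Of 11 tested inhibitor genes, 8 were higher and none lower in KO at day 2, and 9 were lower and 1 higher with Dex at day 2 (6 and none, and 7 and 1, after rescaling). Of all tested genes 37.5% were higher in KO and 31.5% lower with Dex at that day. Fst, which encodes follistatin, a binding protein that traps activin, was 2.27 and 1.63 FPKM in WT at day 2, 9.03 and 8.33 in KO, 4.90 and 5.86 in no Dex, and 2.82 and 3.19 in Dex. KO was above WT (change 1.72, SE 0.12, adjusted p = 4.84e-10), and at day 4 Dex was below no Dex (change -1.59, SE 0.12, adjusted p = 5.96e-09). At day 6 Fst was instead highest in WT, at 22.10 and 24.30 FPKM. Inha, the inhibin alpha subunit, was higher in KO at day 6 (change 1.76, SE 0.12, adjusted p = 2.17e-10).

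Receptor and transducer genes were called in both directions in KO. Of all tested genes at day 2, 37.5% were higher and 21.3% lower in KO, and 12.7% were higher and 31.5% lower with Dex. The counts that follow are of few genes and are to be read beside these shares. Of 3 tested receptor genes, 1 was higher and 1 lower in KO at day 2, and all 3 were lower with Dex at day 2, or 2 after rescaling. Of 5 transducers and partners 1 was higher and 2 lower in KO at day 2, and 2 were higher and 3 lower with Dex. After rescaling 3 of them were lower in KO and 2 lower with Dex. Of the 3 processing genes, which include proteases that cleave the Nodal precursor, 2 were higher in KO at day 2. Pcsk6, one of these, was 9.82 and 10.04 FPKM in no Dex at day 2 and 4.87 and 4.94 in Dex (change -0.89, SE 0.07, adjusted p = 3.69e-09). Of the 3 tested ligand genes, 1 was higher in KO at day 2 and none was called with Dex at that day. Rescaling added 1 lower ligand gene in KO and 1 higher with Dex.

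All 6 tested target genes were lower in KO at day 6, before and after rescaling, as were 34.2% of all tested genes. Sox17, an endoderm factor, was 20.92 and 20.05 FPKM in WT and 0.29 and 0.07 in KO (change -4.19, SE 0.14, adjusted p = 2.04e-15), and Dex held 2.92 and 2.85 against 0.16 and 0.38 in no Dex (change 1.62, SE 0.14, adjusted p = 1.72e-08). Cyp26a1, an enzyme that breaks down retinoic acid, was 11.49 and 10.83 FPKM in WT at day 6 and 0.12 and 0.17 in KO (change -3.41, SE 0.10, adjusted p = 4.46e-16). At day 4 the order was the other way, with 8.93 and 9.12 FPKM in WT, 33.43 and 31.01 in KO, 29.96 and 30.47 in no Dex, and 4.70 and 4.59 in Dex. Dex libraries then lay lowest, below no Dex by a change of -2.47 (SE 0.10, adjusted p = 9.42e-13). Foxa2, a forkhead factor of endoderm and floor plate, was lower in KO at day 6 (change -1.62, SE 0.12, adjusted p = 3.37e-10). Fgf8 stood at 14.21 and 14.91 FPKM in no Dex at day 6 and 3.97 and 3.92 in Dex (change -1.65, SE 0.16, adjusted p = 6.76e-08).

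**Figure D4:**
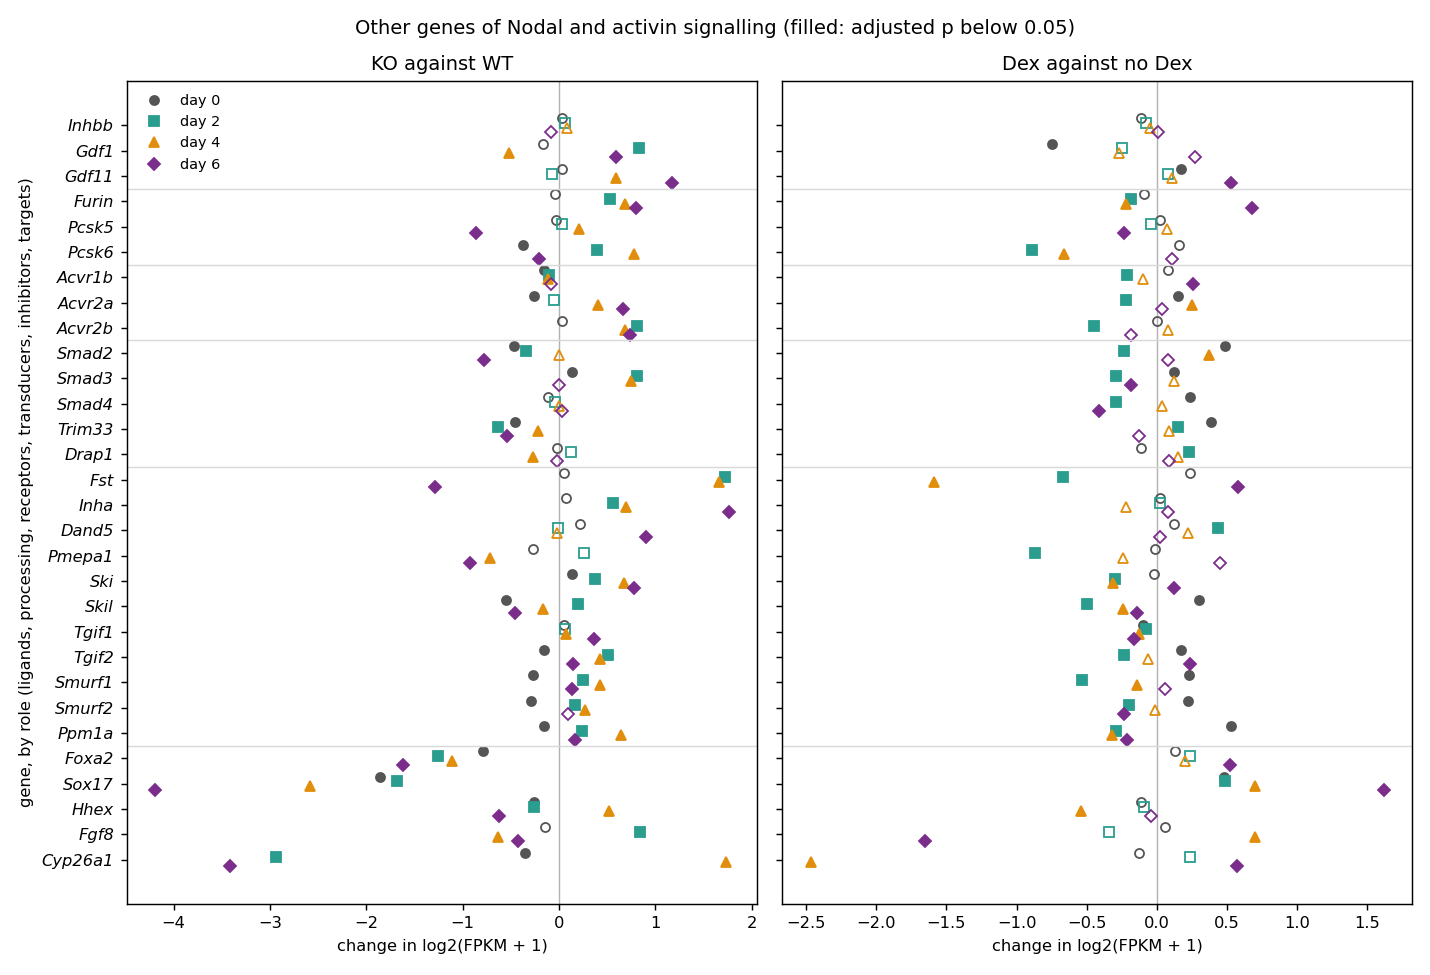
Change in log2(FPKM + 1) of 30 of the 31 tested pathway genes in KO against WT (left) and Dex against no Dex (right), by day, with filled symbols for an adjusted p below 0.05 and grey lines between roles. At day 2 (squares) most inhibitor genes lie right of 0 in KO and left of 0 with Dex, and at day 6 (diamonds) Sox17 and Cyp26a1 lie furthest left in KO.

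Markers of other cells moved with some of these differences. The summed FPKM of 11 endoderm markers ran from 26.03 to 57.47 in the 8 WT libraries and from 3.13 to 12.40 in the 24 others, so the sum was higher in WT at each day, beside the lower Nodal, Lefty and Eomes values of KO and Dex at day 6. Of these markers, Cer1 was listed at 0 in 17 libraries and never exceeded 0.13 FPKM, Afp was at 0 in 18 and Ttr in 13. Sox17 and Foxa2, named above as targets, are also in this list, as is Hhex, named here after its values were seen, which at day 4 went the other way, with means of 3.97 FPKM in KO and 2.48 in WT (change 0.52, adjusted p = 7.79e-05). The 7 stem cell markers summed to between 1947.16 and 2197.19 FPKM at day 0 and between 196.41 and 272.84 at day 6, and at day 4 to between 615.62 and 624.57 in WT against 319.02 to 454.67 elsewhere. Sox2, in this list, never lay below 125.50 FPKM in any library, so it made up a large part of the day 6 sums. At day 2 the stem cell sum was between 1187.67 and 1198.62 in KO, 1100.35 to 1103.48 in WT, 1104.48 to 1120.12 in no Dex and 1009.51 to 1038.27 in Dex, the same order at its ends as Nodal. Of 8 primitive streak and mesoderm markers, Mixl1, Mesp1 and Evx1 never exceeded 0.42 FPKM and T never exceeded 1.39. Hand1, in the same list, reached 10.92 FPKM. At day 0 the sum of these markers was higher with the fusion, with means of 12.62 FPKM in no Dex and 10.32 in Dex. The day 0 means were 5.98 FPKM in WT and 6.8 in KO. The WT sum of 15.06 and 15.57 at day 6 was mostly Kdr (11.67 and 11.42 FPKM). Among 5 node and floor plate markers, Noto was at 0 in 26 libraries and never exceeded 0.05 FPKM. At day 6 the sum of this list was lowest in WT, at 6.41 to 6.53 FPKM. It was 19.45 to 19.66 in KO, 20.29 to 20.89 in no Dex and 25.16 to 25.40 in Dex. Nog, in this list, reached 21.10 FPKM, while Foxj1 never exceeded 5.81, Chrd 4.47 and Shh 0.31. The day 6 sums outside WT thus rested in large part on Nog. Epiblast-like markers (4 genes) summed to between 615.92 and 625.24 FPKM in WT at day 4 and between 396.65 and 419.92 elsewhere. At day 6 WT was instead lowest, at 141.52 to 141.98. KO then held 235.81 to 236.32, no Dex 182.51 to 186.77 and Dex 149.76 to 150.63. By number the order was the other way, with 4 of these markers at a mean of at least 1 FPKM in WT. KO, no Dex and Dex each had 3 such markers. The 5 retinal field markers at day 6 summed to between 540.70 and 572.46 FPKM in WT, 5.60 to 6.28 in KO, 29.47 to 29.87 in no Dex and 263.70 to 268.48 in Dex. The part of these cell types in the results was not tested.

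**Figure D5:**
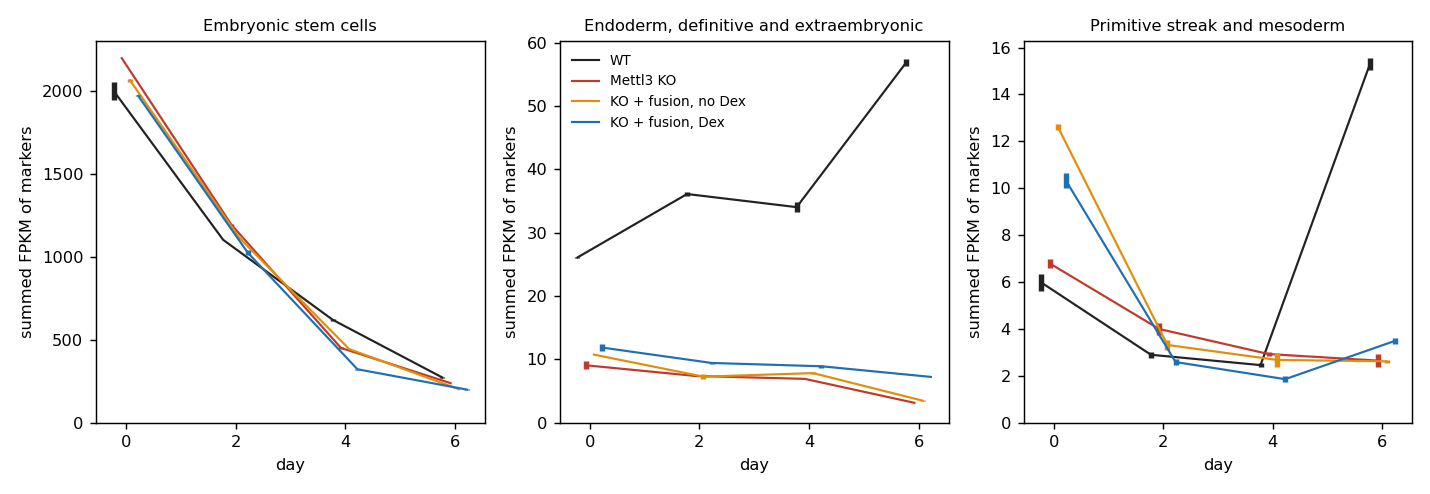
Summed FPKM of 7 stem cell, 11 endoderm and 8 primitive streak and mesoderm markers by day, with lines through group means and vertical bars spanning the 2 libraries. The endoderm sum of WT lies between 26.03 and 57.47 at all days, above all other cultures.

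Over the 16 group means Nodal was most like Lefty1 among the 9 genes (Pearson r = 0.988 on the log2 scale), followed by Lefty2 (0.959), Smad7 (0.937), Gdf3 (0.928) and Tdgf1 (0.916). It was unlike Foxh1 (0.504), Gsc (0.375) and Eomes (0.037), and Foxh1 and Eomes were like each other (0.828). The means share the 4 days, and much of each r is the course over time. Among 10726 expressed genes the closest to Nodal was Lefty1 itself, then Mif4gd (0.987) and Smtnl1 (0.986). The closest to Lefty1 was Nodal, then Tnfsfm13 (0.986) and Grhl3 (0.983). Tdgf1 was closest to its pseudogene Tdgf1-ps1 (0.997), with which it shares sequence, then Chmp4c and Gdf15 (both 0.988), and Gdf3 was closest to Fkbp6 (0.998), Pla2g10 (0.997) and Tdh (0.995). Lefty2 was closest to Spry4 (0.985), Nr0b1 (0.982) and Triml1 (0.981), and Smad7 to Rnf213 (0.968), Zfp819 (0.965) and S1pr2 (0.958). Foxh1 was closest to Ly6e (0.988), Mrps27 (0.983) and Acer2 (0.979), Eomes to Ell3 (0.987), Lad1 and Calca (both 0.980), and Gsc less closely to Col9a2 (0.876), Eras (0.875) and Swt1 (0.841).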

How the data were processed

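Polyadenylated RNA of 16 groups with 2 libraries each was sequenced as paired reads, per the labels' protocols. The authors deposited FPKM per gene for 32 libraries. STAR, Cuffdiff and mm10 are named in the submitters' processing notes, without versions or settings. All columns of per-sample values were used. Low FPKM values are whole multiples of 1 fragment, which gave the depth, and 82.0% to 92.1% of them lay within 0.2 of a whole fragment, against 40.0% of evenly spread values.

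Tests used limma 3.58.1 in R 4.3.3 on log2(FPKM + 1) with a pseudocount of 1, lmFit on 16 group means, contrasts.fit and eBayes with a trend, two-sided, Benjamini-Hochberg adjusted over 16276 genes with at least 1 FPKM in at least 2 libraries. The procedure was first tested on simulated data. Correlations and sequence searches used Python 3.11.15 and carry no test. Groups followed the labels, and all 32 libraries shared the estimate of the spread. Replicate numbers were not used as a block, since deviations of same-numbered libraries correlated at -0.09 to 0.13 over 120 pairs of groups. Alternatives were a pseudocount of 0.1, no filter, a mean FPKM of at least 5, median-of-ratios rescaling, a replicate block, the compared groups alone, and leaving out each library.

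The 9 genes, the pathway and marker lists and the tests were chosen with earlier results of these data known. Named besides the 9 genes were the 6 pathway genes of largest called change in each of 2 comparisons (KO with WT, Dex with no Dex), the 3 genes most like each member (Pearson r, some group mean of at least 5 FPKM), and markers as lists. A gene that this rule names is counted in the lists but its values are not reported here.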

Additional observations from a re-analysis of the deposited data

Results flagged for a closer look

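For these genes the difference between cultures itself differed between days, by the interaction of culture with day in the same limma fit (values are changes in log2(FPKM + 1), difference at the later day less that at day 0, all at an adjusted p under 0.05). The tests share the day 0 libraries. Of all tested genes, 48.9%, 57.4% and 56.9% were called by the tests of KO against WT at days 2, 4 and 6, and 45.0%, 34.8% and 48.7% by those of Dex against no Dex.

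For KO against WT from day 0 to day 2 the difference moved up for Smad7 (1.17), Nodal (1.00), Tdgf1 (0.96), Lefty1 (0.94), Lefty2 (0.66) and Eomes (0.44), and down for Gdf3 (-0.37) and Foxh1 (-0.26). From day 0 to day 4 it moved up for Smad7 (0.47) and down for Lefty2 (-1.24), Lefty1 (-0.81), Foxh1 (-0.80), Gdf3 (-0.71), Eomes (-0.69) and Tdgf1 (-0.62). From day 0 to day 6 it moved up for Smad7 (0.93) and down for Tdgf1 (-1.71), Lefty1 (-1.31), Foxh1 (-0.95), Eomes (-0.94), Lefty2 (-0.85), Gdf3 (-0.77) and Gsc (-0.71).

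For Dex against no Dex from day 0 to day 2 the difference moved down for Lefty2 (-2.27), Smad7 (-1.44), Lefty1 (-1.32), Nodal (-1.04) and Tdgf1 (-0.65), and up for Foxh1 (0.29). From day 0 to day 4 it moved up for Tdgf1 (0.28) and down for Lefty2 (-0.48), Eomes (-0.46) and Foxh1 (-0.24, or -0.14 with adjusted p = 0.0937 after rescaling). From day 0 to day 6 it moved up for Smad7 (0.43), Eomes (0.38), Tdgf1 (0.30) and Gdf3 (0.28), and down for Lefty2 (-0.31, or -0.23 with adjusted p = 0.0974 after rescaling).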

How the results depend on the processing

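No change of a member reversed its sign as a called change under any alternative, and small changes lost their calls most. With a pseudocount of 0.1, members called went from 3 to 5 for no Dex against KO at day 6, from 5 to 1 for Dex against no Dex at day 0, and from 3 to 5 for that comparison at day 6. Without a filter the count for Dex against no Dex at day 0 was 2. With a mean FPKM of at least 5, KO against WT at day 0 gave 2 of 4, and the pathway genes called at day 6 fell from 25 to 16, since fewer genes were tested. Fits of the compared groups alone gave 1 for KO against WT at day 0, 3 for Dex against no Dex at day 0 and 3 at day 4. Leaving out each library gave 3 to 4 for no Dex against KO at day 2, 2 to 3 for Dex against no Dex at day 0, 3 to 6 at day 4, and 3 to 6 for its change from day 0 to day 6 (3 without no Dex replicate 2 of day 6, where 5 were called with all libraries). Where no cause is given, the cause was not tested. The replicate block left 9 members called for KO against WT at day 2 and 8 for Dex against no Dex at day 2, and ended 1 call, that of Gsc for Dex against no Dex at day 0 (-0.32, adjusted p = 0.0508). The replicate numbers do not pair the samples. Rescaling ended the calls of 7 changes of members, left 233 in place, and moved no count of called genes by over 1.5 times. It moved several counts in 1 direction by more. Among these were the lower pathway genes of Dex against no Dex at day 0, from 2 to 5. The higher members of WT from day 4 to day 6 went from 3 to 1. For the change in the KO difference from day 0 to day 4, lower pathway genes went from 2 to 6. Lowest values rest on few fragments, about 2 for Gsc in WT at day 2 and 19 for Lefty2 in no Dex at day 6.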
